A study of Mus musculus with 4 samples.

Results

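The genes described here copy DNA in S phase or divide the cell in mitosis. They were chosen by symbol, with earlier results of these data known: 18 replication genes, from Ccne1 to Cdt1, and 22 mitotic genes, from Mki67 to Racgap1. All 40 had a row among the 34615 gene rows of the deposited counts. RNA was sequenced from mouse mammary basal cells, the contractile outer layer of the epithelium, which includes its stem cells. Donor cells were either wild type at Mir205 (genotype label WTfl/flmTmGfl/fl cre+, here WT) or carried Mir205 alleles flanked by loxP sites (miR205fl/flmTmGfl/fl cre+, here KO). Both groups carried the RosamTmG reporter, which changes from red to green fluorescence after Cre recombination, and both received a Cre adenovirus (Ad-cre) before transplantation into SCID-Beige recipients aged 3 weeks. SCID-Beige mice lack functional lymphocytes but supply the stroma, vessels and myeloid cells around the graft. After 8 weeks, outgrowths from a pool of 40 were dissociated, and GFP+ CD24+ CD49f-high cells were sorted. There were 2 WT and 2 KO libraries. No label says that replicates of a genotype came from separate pools, so p-values reflect only how these libraries vary, and that variation may be technical.

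Cyclin E and its kinase help a dividing cell enter S phase, as E2F transcription factors are released from the RB proteins. Helicase loading by CDT1, helicase firing through CDC45 and the GINS complex, and a supply of nucleotides allow DNA to be copied. Mitotic genes come on later, in G2, through a complex that binds a promoter element called CHR, and their products build the spindle, check its attachments, release the chromosomes and part the daughter cells. RNA of both groups is therefore a common measure of how much of a cell population is cycling. In bulk libraries fewer cycling cells and less RNA per cycling cell cannot be told apart.

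The 4 libraries held 47953972 to 60030932 gene counts. KO replicate 2 stood apart, with a count in 12679 genes against 18027 to 18897 in the other libraries, so results are given with and without it. Basal markers were abundant in all libraries, with Krt5 at 1218 counts-per-million (CPM) in both WT libraries and 1772 and 1511 CPM in KO. The 11 measured basal markers summed to 9999 to 12710 CPM, and the 14 luminal markers to 1133 to 1980 CPM. CPM values here are scaled by TMM, a method that equalises library composition, unless stated otherwise. The hairpin of Mir205 itself had 0 counts in all 4 libraries, so it does not check the labels.

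Many promoters of both groups, though not those of Ccne1, Tyms, Dut and Nusap1, carry matches to known sequence elements. Promoter windows of 300 bases, from 250 before to 50 after the start site, came from RefSeq (GRCm38.p6) and matched 15 replication and 19 mitotic genes. Ccne2, Mcm4, Gins2, Ccna2, Kif20a and Tpx2 had no entry. Elements searched on both strands were CHR (TTTGAA or TTCGAA), an E2F element (TTTCGCGC, TTTGGCGC, TTTCCCGC or TTTGCCGC) and the CCAAT box (CCAAT), which the factor NF-Y binds. None of the words searched contains another. A CHR match was present in 16 of 19 mitotic genes (84.2%) and 3 of 15 replication genes (20%), against 21.7% of all 27025 genes in the promoter table. An E2F match was present in 6 of 15 replication genes (40.0%) and 1 of 19 mitotic genes (5.26%), against 2.6% of all genes. CCAAT boxes were present in 11 of 15 replication genes (73.3%) and 17 of 19 mitotic genes (89.5%), against 41.1% of all genes. A match describes letters only and shows no binding.

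**Figure D1:**
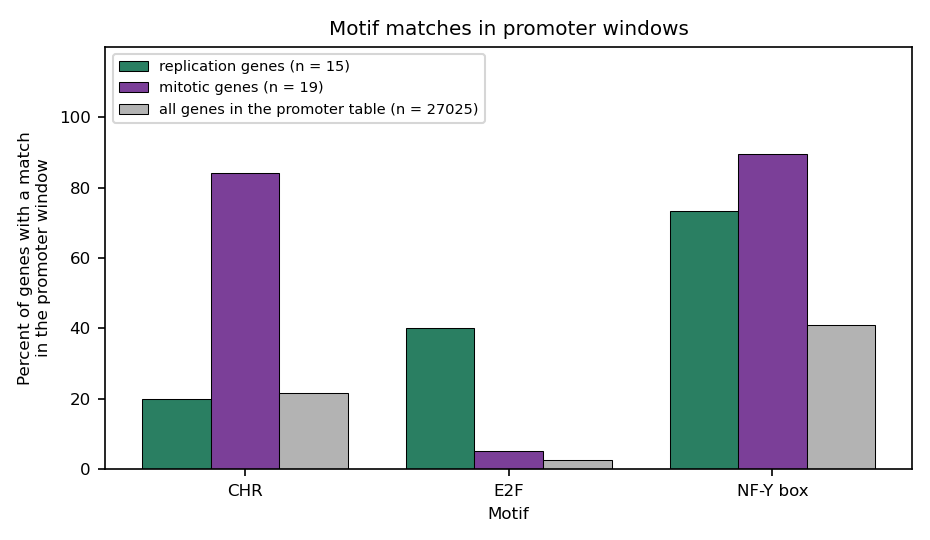
Percent of genes with a match to each element in the 300-base promoter window (vertical axis), for replication genes (green), mitotic genes (purple) and all genes of the promoter table (grey); NF-Y box is the CCAAT box. CHR matches stand at 84.2% in mitotic genes against 21.7% of all genes, and E2F matches at 40.0% in replication genes against 2.6%.

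The last 150 bases before the start site are shown for 4 genes whose RNA is described below, with matches in capitals, on the strand of the gene. Mki67 (chr7:135716380-135716529, minus strand) has CHR and CCAAT matches, Cdk1 (chr10:69352913-69353062, minus strand) has all 3 elements, Ect2 (chr3:27153879-27154028, minus strand, the first of 2 listed start sites) has CHR and CCAAT matches, and Mcm5 (chr8:75109359-75109508, plus strand) has E2F and CCAAT matches.
Mki67: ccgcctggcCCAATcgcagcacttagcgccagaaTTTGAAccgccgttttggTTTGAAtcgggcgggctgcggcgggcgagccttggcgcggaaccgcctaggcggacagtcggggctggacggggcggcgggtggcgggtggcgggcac
Cdk1: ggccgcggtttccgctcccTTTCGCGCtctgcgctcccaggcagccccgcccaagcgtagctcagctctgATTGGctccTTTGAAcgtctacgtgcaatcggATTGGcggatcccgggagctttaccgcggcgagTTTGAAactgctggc
Ect2: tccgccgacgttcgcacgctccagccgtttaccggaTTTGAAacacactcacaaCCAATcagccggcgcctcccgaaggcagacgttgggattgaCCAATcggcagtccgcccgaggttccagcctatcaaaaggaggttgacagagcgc
Mcm5: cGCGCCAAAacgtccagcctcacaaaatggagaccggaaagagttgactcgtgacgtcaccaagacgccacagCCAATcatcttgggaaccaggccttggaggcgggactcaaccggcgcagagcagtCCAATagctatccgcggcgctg

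The microRNA targeted in KO, miR-205, pairs with target RNA mainly through its seed, bases 2 to 8 from the 5' end, in capitals in the mature sequence from RefSeq. Its site in a target, the reverse complement ATGAAGG, was searched in the longest 3' UTR of each gene in GENCODE M21 (a GRCm38 annotation). Cenpf was the 1 member of 40 with a site, against 12.1% of 12636 tested genes with an annotated 3' UTR. The median UTR was 949 bases in the members and 1200 in all those genes. Among the cell cycle genes listed for comparison, those with a site were Ccnd2 and Cdkn1b of the G1 list, E2f1, E2f2, E2f4 and Lin9 of the RB and E2F list, Orc6 and Dbf4 of the further replication genes, and Hjurp of the further mitotic genes. The site is in capitals below for Cenpf and for Ccnd2, Cdkn1b, E2f1 and Hjurp, whose RNA levels are given later.
miR-205-5p: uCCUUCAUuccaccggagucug
Cenpf site: agggcttgaaaagATGAAGGcat
Ccnd2 site: actgaaacattgaATGAAGGaag
Cdkn1b site: aatttaaaaataaATGAAGGaat
E2f1 site: cgtgtgcccgggaATGAAGGtga
Hjurp site: attcagtgacaacATGAAGGata

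No cell cycle gene passed the test of KO against WT. With the edgeR quasi-likelihood test over 15364 genes, 0 of 40 members had a Benjamini-Hochberg adjusted p under 0.05, against 0% of all genes tested, and the smallest adjusted p of a member was 0.9989. At an unadjusted p under 0.05 there was 1 member, Mki67, against 0.957% of all genes tested (147 genes). DESeq2 called 4 genes over all and limma voom called 0, none of them a member in either case. Without KO replicate 2, edgeR again called 0 members and 0% of 16904 genes, and the unadjusted p was under 0.05 for Mki67 alone among the members and for 2.8% of all genes (474 genes). The statements below therefore describe levels in these libraries, with no difference past the threshold.

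The members were mostly low in both genotypes. Per kilobase of exon, the WT mean ran from 0.16 CPM per kb for Cdc45 to 43.7 CPM per kb for Pcna, with Mcm4 (8.53), Mki67 (6.11) and Mcm7 (5.93) next. The cyclin D1 gene Ccnd1, which acts in G1, stood at 33.3 CPM per kb on the same scale. In WT, 24 members had a mean under 5 CPM, and 2 had a mean of 50 CPM or more.

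**Figure D2:**
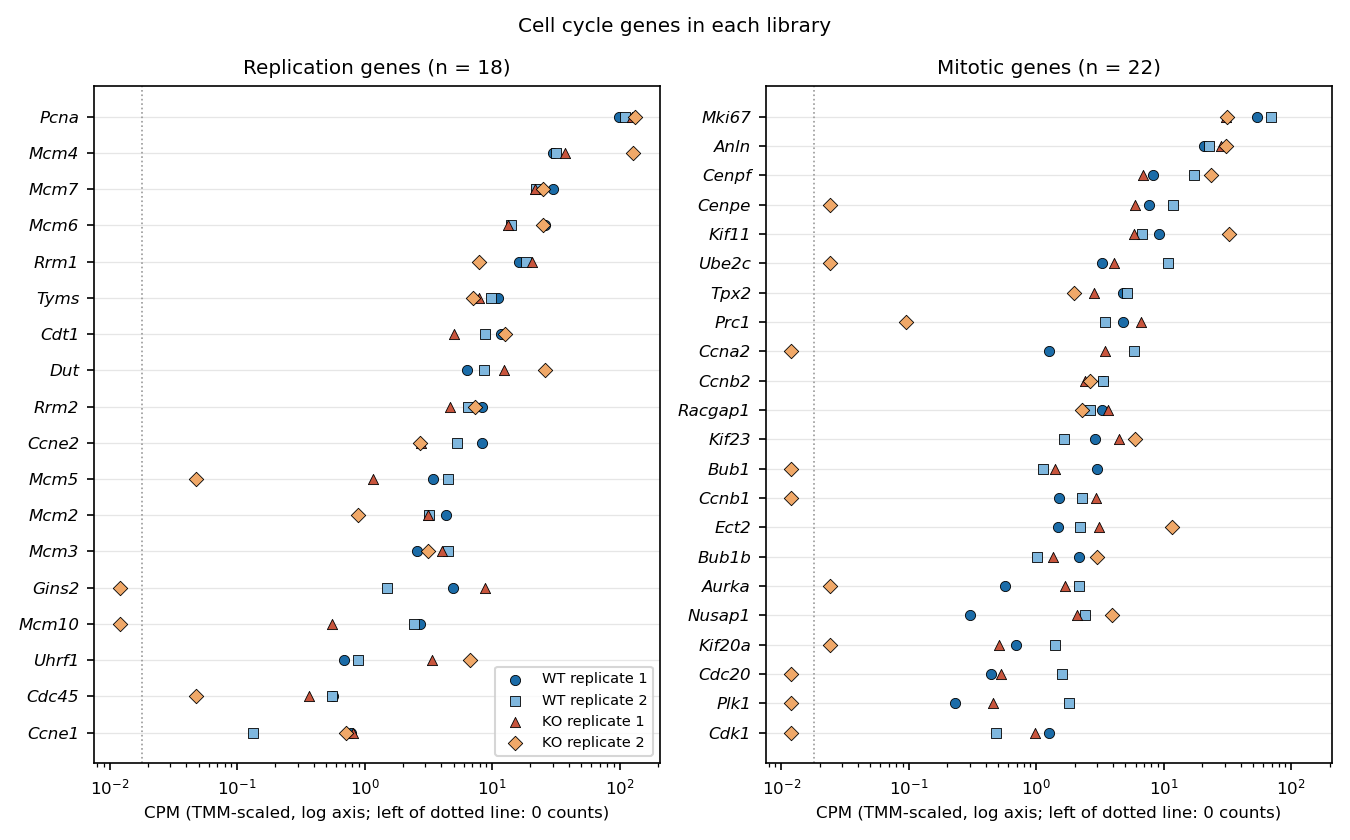
Level of each of the 40 genes in each library (points, TMM-scaled CPM on a log axis, genes ordered by WT mean; points left of the dotted line had 0 counts). KO replicate 2 (orange diamonds) has 8 genes at 0 counts and others, such as Mcm4 at 127 CPM, above the other 3 libraries.

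Both KO libraries lay above both WT libraries in 7 of the 40 genes (17.5%, against 13.2% of all genes tested) and below them in 11 (27.5%, against 19.2%). Those above were Pcna, Mcm4, Dut and Uhrf1 of the replication genes and Anln, Ect2 and Kif23 of the mitotic genes. Those below were Ccne2, Mcm2, Mcm5, Mcm10, Cdc45 and Tyms of the replication genes and Mki67, Ccnb2, Cenpe, Kif20a and Tpx2 of the mitotic genes. With upper quartile or total count scaling Mcm7 and Rrm2 were also below, and the other genes listed kept their side. The median log2 fold change was -0.20 over the replication genes (7 positive, 11 negative) and -0.54 over the mitotic genes (8 positive, 14 negative), beside -0.14 over all genes tested, of which 42.8% were positive. Without KO replicate 2 these medians were -0.26 and -0.34, beside -0.04.

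Among the replication genes, the E-type cyclins open S phase. Ccne2 stood at 8.3 and 5.28 CPM in the WT libraries against 2.78 and 2.73 CPM in the KO libraries, a log2 fold change of -1.30 ± 1.03 (SE; edgeR, adjusted p = 0.9989). Both KO libraries lay near each other and below both WT libraries. The exons of Ccne2 share 17.4% of their length with Ints8 on the opposite strand in GENCODE M21. Without a stated strand setting, it is not known whether reads in such shared stretches were assigned or left out. Its paralog Ccne1 was low, at 44 and 8 counts in the WT libraries against 51 and 30 in the KO libraries, and the groups overlapped.

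The MCM2 to MCM7 proteins form the ring of the replicative helicase, and the levels of their genes lay on different sides of WT. Mcm4 stood at 29.8 and 31.5 CPM in the WT libraries, 37.5 CPM in KO replicate 1 and, in KO replicate 2, 127 CPM, a log2 fold change of 1.43 ± 0.63 (SE; edgeR, adjusted p = 0.9989) that was 0.29 ± 0.31 without KO replicate 2. Mcm5 stood at 3.42 and 4.49 CPM in the WT libraries, 1.16 CPM in KO replicate 1 and 0.0479 CPM, which is 2 counts, in KO replicate 2. The subunits Mcm4 and Mcm5, which sit in the same ring, thus lay on opposite sides of WT in both KO libraries.
Mcm7 stood at 30.2 and 22.3 CPM in the WT libraries against 21.8 and 24.9 CPM in the KO libraries, and Mcm6 at 26 and 14.1 CPM in the WT libraries against 13.3 and 25.2 CPM in the KO libraries, so that both overlapped. Mcm3 stood at 2.59 and 4.5 CPM in the WT libraries against 4.07 and 3.16 CPM in the KO libraries. Mcm2 stood at 4.33 and 3.23 CPM in the WT libraries, 3.16 CPM in KO replicate 1, just under the lower WT library, and 0.886 CPM in KO replicate 2. Cdt1, whose product helps load the ring on DNA, stood at 11.8 and 8.87 CPM in the WT libraries, 4.99 CPM in KO replicate 1 and, in KO replicate 2, 12.7 CPM. It was lower than WT in KO replicate 1 only.

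The factors that start the helicase were low in all libraries. Mcm10, a firing factor, stood at 2.71 and 2.45 CPM in the WT libraries, 0.557 CPM in KO replicate 1 and 0 counts in KO replicate 2, where a count of 0 allows up to 0.0719 CPM by counting error. Cdc45 had 32 and 33 counts in the WT libraries, against 23 in KO replicate 1 and 2 in KO replicate 2. Both genes were below WT in both KO libraries. The GINS subunit gene Gins2 stood at 4.97 and 1.5 CPM in the WT libraries, 8.79 CPM in KO replicate 1 and 0 counts in KO replicate 2. Its KO libraries thus lay on opposite sides of WT, and 67.3% of its exon length overlaps Gse1 on the other strand.

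Enzymes of nucleotide supply lay on both sides of WT. Tyms, thymidylate synthase, stood at 11.1 and 9.74 CPM in the WT libraries against 7.86 and 7.14 CPM in the KO libraries, a log2 fold change of -0.47 ± 0.76 (SE; edgeR, adjusted p = 0.9989). Rrm2, the S-phase subunit of ribonucleotide reductase, stood at 8.39 and 6.52 CPM in the WT libraries against 4.69 and 7.33 CPM in the KO libraries. Rrm1, the large subunit, stood at 16.3 and 18.3 CPM in the WT libraries, 20.4 CPM in KO replicate 1 and, in KO replicate 2, 7.86 CPM. Dut, the dUTPase that keeps uracil out of DNA, lay on the other side of WT, at 6.4 and 8.57 CPM in the WT libraries against 12.3 and 26 CPM in the KO libraries (log2 fold change 1.35 ± 0.73, SE; 0.72 ± 0.50 without KO replicate 2).

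Pcna, the sliding clamp of the DNA polymerases, was the most abundant member per kilobase and stood at 99.8 and 110 CPM in the WT libraries against 125 and 131 CPM in the KO libraries. The difference of the means, 105 ± 6.99 CPM against 128 ± 3.95 CPM (SD, n = 2 each), gave a log2 fold change of 0.29 ± 0.24 (SE; edgeR, adjusted p = 0.9989), and 0.26 ± 0.20 without KO replicate 2. Uhrf1, which reads hemimethylated DNA behind the replication fork, had the widest positive fold change of the members, with 0.692 and 0.89 CPM in the WT libraries against 3.36 and 6.76 CPM in the KO libraries (log2 fold change 2.67 ± 1.29, SE). This rests on 39 and 53 counts in the WT libraries against 211 and 282 in the KO libraries, and the fold change was 2.08 ± 1.0 without KO replicate 2 (edgeR, adjusted p = 0.9998).

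Of the mitotic genes, Mki67, which encodes the Ki-67 antigen that coats mitotic chromosomes and is used as a stain for cycling cells, was the most abundant per kilobase. It stood at 53.8 and 69.1 CPM in the WT libraries against 30.9 and 31.3 CPM in the KO libraries, on 1305 to 4111 counts per library. Both KO libraries lay close together and under both WT libraries. The log2 fold change was -0.98 ± 0.35 (SE), with an unadjusted p of 0.03742 and an adjusted p of 0.9989 in the edgeR test. Without KO replicate 2 it was -0.99 ± 0.30 (unadjusted p of 0.0125, adjusted p of 0.9998, edgeR). Mki67 thus did not pass over all genes, and its size was nearly the same in each KO library taken alone. An exact permutation test of 2 libraries against 2 cannot go below p = 0.333.

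The B-type and A-type cyclins and their kinase drive entry into mitosis. Ccnb2 stood at 3.32 and 3.36 CPM in the WT libraries against 2.42 and 2.66 CPM in the KO libraries, a log2 fold change of -0.40 ± 1.17 (SE; edgeR, adjusted p = 0.9989). Ccnb1 stood at 1.51 and 2.28 CPM in the WT libraries and 2.94 CPM in KO replicate 1, Ccna2 at 1.26 and 5.83 CPM in the WT libraries and 3.44 CPM in KO replicate 1, and Cdk1 at 1.26 and 0.487 CPM in the WT libraries and 0.97 CPM in KO replicate 1. All of these but Ccnb2 had 0 counts in KO replicate 2, and 12.5% of the exon length of Ccna2 overlaps Exosc9 on the other strand. KO replicate 1 was above WT for Ccnb1 and between the WT libraries for Ccna2 and Cdk1. For Ccnb1 and Cdk1 the fitted log2 fold change was negative with 4 libraries and positive, 0.64 ± 0.89 and 0.15 ± 1.42, without KO replicate 2.

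Kinases, checkpoint proteins and the machinery that degrades mitotic proteins were mostly undetected in KO replicate 2. Plk1, the polo kinase, had 13 and 107 counts in the WT libraries, against 29 in KO replicate 1 and 0 in KO replicate 2. Aurka, the spindle pole kinase, had 32 and 129 counts in the WT libraries, against 105 in KO replicate 1 and 1 in KO replicate 2. For both genes KO replicate 1 lay between the WT libraries.
Bub1, a kinetochore checkpoint kinase, had 170 and 67 counts in the WT libraries, against 88 in KO replicate 1 and 0 in KO replicate 2, while its relative Bub1b had 122 and 60 in WT and 85 and 125 in KO. Cdc20, which activates the anaphase-promoting complex, had 25 and 95 counts in the WT libraries, against 33 in KO replicate 1 and 0 in KO replicate 2. Ube2c, the ubiquitin-conjugating enzyme of that complex, had 185 and 636 counts in the WT libraries, against 256 in KO replicate 1 and 1 in KO replicate 2; 22.8% of its exon length overlaps Tnnc2 on the other strand. Bub1b was the only gene of this set of 6 with more than 1 count in KO replicate 2.

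Genes of centromere proteins and spindle motors lay on different sides of WT in KO replicate 2. Cenpe, a kinetochore motor, stood at 7.68 and 11.8 CPM in the WT libraries, 5.96 CPM in KO replicate 1 and 0.024 CPM, a single count, in KO replicate 2. Cenpf, a large kinetochore protein and the member with a miR-205 site, stood at 8.18 and 17.3 CPM in the WT libraries, 6.93 CPM in KO replicate 1 and, in KO replicate 2, 23.6 CPM. Kif11, the motor that pushes spindle poles apart, stood at 9.1 and 6.72 CPM in the WT libraries, 5.8 CPM in KO replicate 1 and, in KO replicate 2, 32.2 CPM. In KO replicate 1 each of these was below both WT libraries, and in KO replicate 2 Cenpe was nearly undetected while Cenpf and Kif11 were above both, at 1.86 and 4.07 times the WT mean.
The spindle assembly factor Tpx2 stood at 4.75 and 5.11 CPM in the WT libraries against 2.85 and 1.99 CPM in the KO libraries, below WT in both libraries (log2 fold change -1.03 ± 1.11, SE; edgeR, adjusted p = 0.9989). Nusap1, a microtubule-binding protein, had 17 and 144 counts in the WT libraries against 131 and 163 in the KO libraries. The WT libraries of Nusap1 differed by more than the KO libraries did.

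Genes of cytokinesis, the final cut between daughter cells, included the mitotic genes above WT in both KO libraries. Anln, the anillin scaffold of the contractile ring, stood at 20.7 and 22.5 CPM in the WT libraries against 28.3 and 30.5 CPM in the KO libraries (21.6 ± 1.29 against 29.4 ± 1.57 CPM, SD, n = 2 each), a log2 fold change of 0.44 ± 0.44 (SE; edgeR, adjusted p = 0.9989). Ect2, the exchange factor that activates RhoA at the furrow, stood at 1.47 and 2.2 CPM in the WT libraries, 3.12 CPM in KO replicate 1 and, in KO replicate 2, 11.5 CPM. Kif23, a motor of the central spindle, stood at 2.89 and 1.65 CPM in the WT libraries against 4.48 and 5.94 CPM in the KO libraries. For each of these genes both KO libraries lay above both WT libraries.
Racgap1, the partner of KIF23, stood at 3.25 and 2.64 CPM in the WT libraries against 3.64 and 2.3 CPM in the KO libraries, overlapping. Prc1, which bundles the central spindle, stood at 4.82 and 3.44 CPM in the WT libraries, 6.62 CPM in KO replicate 1 and 0.0958 CPM, 4 counts, in KO replicate 2, with 11.1% of its exon length overlapping Rccd1 on the other strand. Kif20a, another motor of this stage, had 39 and 83 counts in the WT libraries, against 32 in KO replicate 1 and 1 in KO replicate 2, with 29.3% of its exon length overlapping Cdc23 on the other strand. Of these 6 genes, KO replicate 2 was thus high in 3 and nearly empty in 2.

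**Figure D3:**
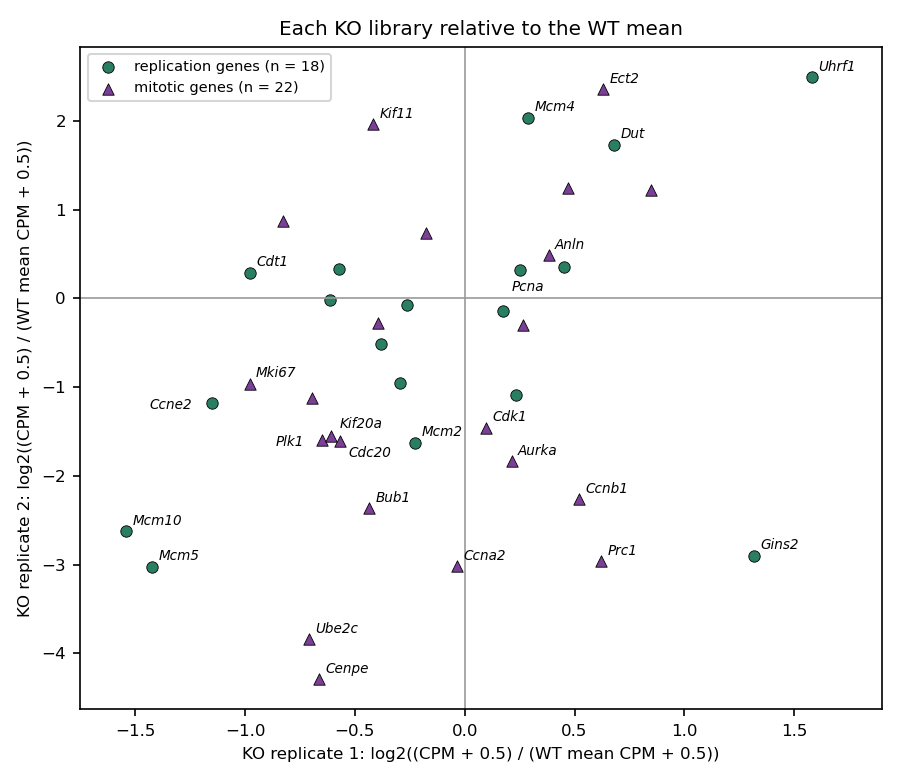
Each gene's level in KO replicate 1 (horizontal) and KO replicate 2 (vertical) relative to the WT mean, as log2 of CPM plus 0.5; circles are replication genes and triangles mitotic genes. The vertical axis spans more than the horizontal one: Mki67 and Ccne2 lie below 0 by similar amounts in both libraries, whereas Kif11 and Gins2 lie on opposite sides.

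The 2 KO libraries gave different pictures of the same genes. KO replicate 2 had under 10 counts in 15 of the 40 members (37.5%, against 29.2% of all genes tested), 4 of 18 replication genes and 11 of 22 mitotic genes. KO replicate 1 had under 10 counts in none of them, against 2.94% of all genes, and the only such value in WT was Ccne1 with 8 counts in WT replicate 2. Loss of counts in KO replicate 2 went with the WT level over all genes tested: 64.7% of genes at 1 to 2 CPM in WT had under 10 counts there, 43.7% at 2 to 5 CPM, 23.9% at 5 to 10 CPM and 7.83% at 10 to 20 CPM. Of the members, 5 of 8, 6 of 12, 2 of 6 and 0 of 4 in the same ranges had under 10 counts. The part of low detection in the lower mitotic levels of that library was not tested.

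**Figure D4:**
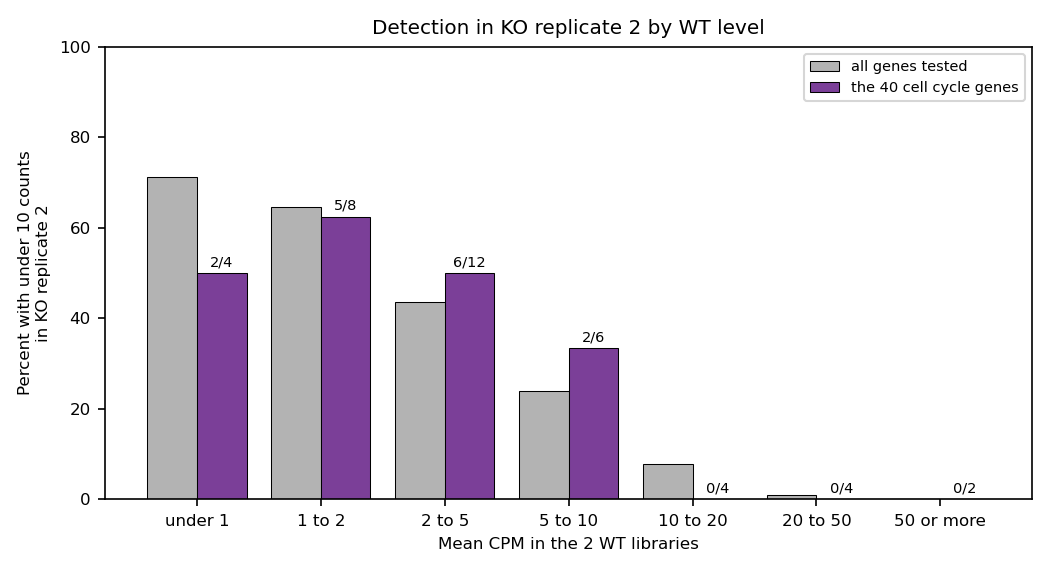
Percent of genes with under 10 counts in KO replicate 2 (vertical axis) by mean CPM in the 2 WT libraries (horizontal axis), for all genes tested (grey) and the 40 cell cycle genes (purple, with numbers of genes). The share over all genes goes down with each step of the WT level, and 0 of the 10 members above 10 CPM in WT are under 10 counts.

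High values occurred in the same library. KO replicate 2 was over 2 times the WT mean in 3 of 18 replication genes (16.7%) and 4 of 22 mitotic genes (18.2%), against 15.0% of all genes tested, and under 0.5 times in 7 (38.9%) and 12 (54.5%), against 44.0%. In KO replicate 1, 12 of 18 replication genes (66.7%) and 20 of 22 mitotic genes (90.9%) stayed between these limits, against 84.3% of all genes. Leaving out KO replicate 1, so that KO replicate 2 alone was set against WT, edgeR called 6 replication genes (3 higher, 3 lower) and 9 mitotic genes (2 higher, 7 lower). The background of that fit was 12.4% of genes called higher and 22.5% called lower. The higher ones were Mcm4, Dut, Uhrf1, Kif11 and Ect2. The lower ones were Mcm5, Mcm10, Gins2, Mki67, Ccnb1, Ccna2, Bub1, Ube2c, Cenpe and Prc1, with Mki67 at -0.98 on the log2 scale (edgeR, adjusted p = 0.04476). All but Mki67 of the lower ones had 4 counts or fewer in KO replicate 2. Every one of these calls belongs to 1 library, and the lower ones at 4 counts or fewer cannot be told apart from its detection. Mki67 had 1305 counts in KO replicate 2, at 0.509 times the WT mean, against 0.503 times in KO replicate 1. The part of that library's detection in the higher ones and in Mki67 was not tested.

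KO replicate 1, detected as deeply as WT, was above both WT libraries in 13 members (32.5%, against 31.4% of all genes tested) and below both in 17 (42.5%, against 30.9%). By group it was above in 7 and below in 10 of the 18 replication genes, and above in 6 and below in 7 of the 22 mitotic genes. In this library the most uneven members were Uhrf1 at 4.24 times and Gins2 at 2.72 times the WT mean, and Mcm10 at 0.215 times and Mcm5 at 0.294 times. Each of these had a WT mean under 4 CPM.

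The WT libraries themselves differed in mitotic RNA. Across the 22 mitotic genes of these same libraries, log2 levels with 0.5 CPM added correlated at r = 0.819 between the WT libraries, at 0.895 and 0.862 between each of them and KO replicate 1, and at 0.640 and 0.545 with KO replicate 2. Across the 18 replication genes r was 0.956 between the WT libraries, and over all genes tested 0.965. Genes are not independent replicates, and abundant genes set much of each r. WT replicate 2 was above WT replicate 1 in 15 of 22 mitotic genes (68.2%) and 7 of 18 replication genes (38.9%), against 49.1% of all genes tested. Plk1 stood at 0.231 and 1.8 CPM, Nusap1 at 0.302 and 2.42 CPM, Ccna2 at 1.26 and 5.83 CPM and Ube2c at 3.28 and 10.7 CPM in WT replicates 1 and 2. Over the mitotic genes the median difference was 0.41 on the log2 scale with 0.5 CPM added. Sums of markers of other cells were also higher in WT replicate 2. The 14 luminal markers summed to 1133 and 1701 CPM in WT replicates 1 and 2 (11 of 14 higher in WT replicate 2). The 7 endothelial markers summed to 120.3 and 213.2 CPM (5 of 7 higher) and the 5 pericyte markers to 72.69 and 182.3 CPM (5 of 5). The 10 immune markers summed to 71.6 and 155.7 CPM (6 of the 8 tested higher). Rgs5, at 53.6 and 130 CPM, led the pericyte sum, and Cd74, at 56.1 and 136 CPM, the immune sum. Esr1, Foxa1, Gata3, Kdr, Cldn5, Cd3e and Itgam were lower in WT replicate 2. In KO the sums were 1245 and 1980 CPM for luminal, 172.1 and 81.39 CPM for endothelial, 104.6 and 108.2 CPM for pericyte and 102.5 and 319 CPM for immune markers. In KO replicate 2, Cd74, which antigen-presenting cells express, made up 289 CPM of the immune sum. Ptprc and Cd3e were also above both WT libraries there, whereas Laptm5, Csf1r, Lyz2, Itgam and Cd79a were below both, so the immune list had no common direction. The 8 fibroblast markers summed to 539 to 787.2 CPM, highest in KO replicate 2. Their part in the cell cycle levels was not tested.

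Summed over members, the level followed the few abundant genes. The replication genes summed to 268 and 253 CPM in WT and to 273 and 384 CPM in KO, a log2 ratio of KO to WT means of 0.34, or 0.07 without KO replicate 2. Pcna made up 40.2% of the WT sum, and most of the excess in KO replicate 2 was Mcm4. The mitotic genes summed to 135 and 177 CPM in WT and to 120 and 149 CPM in KO, a log2 ratio of -0.21 with overlapping groups. It was -0.37 without KO replicate 2, -0.39 without WT replicate 1, -0.06 without KO replicate 1 and 0.00 without WT replicate 2. Mki67 made up 39.5% of the WT sum. Without Mki67 the mitotic sums were 80.9 and 108 CPM in the WT libraries against 89.5 and 118 CPM in the KO libraries, a log2 ratio of 0.14, or -0.07 without KO replicate 2, again with overlapping groups.

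**Figure D5:**
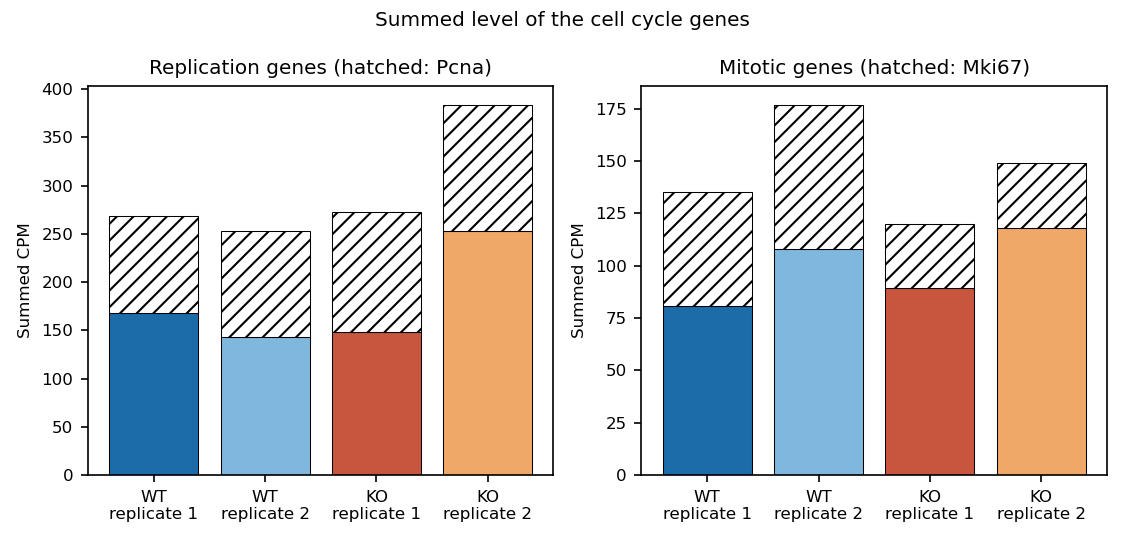
Summed TMM-scaled CPM of the 18 replication genes (left) and the 22 mitotic genes (right) in each library; the hatched part is Pcna on the left and Mki67 on the right. The mitotic sum without Mki67 runs from 80.9 to 118 CPM with the genotypes overlapping, while the hatched Mki67 part is smaller in both KO libraries.

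Regulators around these genes likewise held no called gene, and in the lists of G1, RB and damage genes 0 reached an unadjusted p under 0.05 with edgeR. Of the G1 cyclins, kinases and inhibitors, 12 of 15 listed were tested, 0 were called, 7 were positive and 5 negative, and the median log2 fold change was 0.06. Over all genes tested, 42.8% were positive and the median was -0.14. Ccnd1 stood at 135 and 178 CPM in the WT libraries against 145 and 176 CPM in the KO libraries. Ccnd2, which carries a miR-205 site, stood at 102 and 109 CPM in the WT libraries against 138 and 203 CPM in the KO libraries. It was above WT in both KO libraries (log2 fold change 0.69 ± 0.28, SE, edgeR, adjusted p = 0.9989). Among the other comparison genes with a site, E2f4 also lay above WT in both KO libraries, Lin9 lay below, and the rest overlapped.
Of the CDK inhibitors, Cdkn1a (p21) stood at 283 and 461 CPM in the WT libraries against 415 and 380 CPM in the KO libraries, and Cdkn1b (p27) at 27.2 and 30.3 CPM in the WT libraries, 27.3 CPM in KO replicate 1 and, in KO replicate 2, 84.8 CPM. Cdkn1c (p57) stood at 2.06 and 4.5 CPM in the WT libraries against 3.32 and 1.05 CPM in the KO libraries, and Cdkn2a was at 0 counts in all libraries. The inhibitors thus gave no common direction, and p21 was far above the mitotic cyclins in CPM per kb in WT, at 105 against 0.45 for Ccnb1.
Of the RB, E2F and DREAM regulators 18 were tested, 0 were called, 5 were positive and 13 negative (median -0.32, and 0.05 without KO replicate 2). E2f1 stood at 1.19 and 1.11 CPM in the WT libraries against 0.382 and 1.65 CPM in the KO libraries. Foxm1, the activator of mitotic genes, stood at 24.7 and 21.8 CPM in the WT libraries against 24.5 and 37.9 CPM in the KO libraries. Neither parted the genotypes.

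Genes of the same processes outside the 40 gave the same counts of calls. Of 33 further replication genes tested, 0 were called, 16 were positive (48.5%) and 17 negative (median -0.41, and 0.00 without KO replicate 2). KO replicate 2 had under 10 counts in 18 of them (54.5%). Of 38 further mitotic genes tested, 0 were called, 10 were positive (26.3%) and 28 negative (median -1.03, and -0.35 without KO replicate 2). KO replicate 2 had under 10 counts in 24 of them (63.2%). Over all genes tested, 42.8% were positive (median -0.14, and -0.04 without KO replicate 2) and 29.2% had under 10 counts there. At an unadjusted edgeR p under 0.05 there were 0 of these further genes with 4 libraries, against 0.957% of all genes. Without KO replicate 2 there were 2, both mitotic, against 2.8% of all genes. Hjurp, the chaperone that loads the centromeric histone, stood at 45.1 and 51.8 CPM in the WT libraries, 28.2 CPM in KO replicate 1 and, in KO replicate 2, 49.0 CPM. Without KO replicate 2 the log2 fold change of Hjurp was -0.78 ± 0.30 (SE; edgeR, unadjusted p of 0.03305, adjusted p of 0.9998). Ttk, the spindle checkpoint kinase MPS1, stood at 1.06 and 1.76 CPM in the WT libraries against 5.42 and 6.35 CPM in the KO libraries, above WT in both libraries (log2 fold change 2.06 ± 1.16, SE, edgeR, adjusted p = 0.9989; 1.94 ± 0.82 and an unadjusted p of 0.04768 without KO replicate 2). Of the DNA damage and p53 target genes 12 were tested, 0 were called, 7 were positive and 5 negative (median 0.13). Trp53, Top2a, Aurkb, Birc5 and Cdc6 were not analysed here.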

How the data were processed

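RNA was sequenced from sorted basal mammary cells in 2 WT and 2 KO libraries. A PicoPure kit gave the RNA, and NuGEN and Illumina kits the libraries, per the labels' protocols. The deposited values are raw read counts per Ensembl gene. The submitters' processing notes name TopHat2 (2.02), HTSeq and the NCBIM37 (mm9) build; neither annotation release nor strand setting is given in the sources used here. The 5 summary rows were left out of all sums and fits. Reads outside features were 57.59% to 61.52% of counted lines. Symbols and exon lengths came from GENCODE M21, a GRCm38 annotation and so of a later build than the counts, by gene identifier (30082 rows matched, 86.9%).

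Genes were tested in R 4.3.3 with edgeR 4.0.16 (filterByExpr, TMM, quasi-likelihood test of genotype, Benjamini-Hochberg over all genes tested, threshold 0.05). SEs are the log2 fold change over the square root of F. Alternatives used DESeq2 1.42.0, limma 3.58.1 voom, other scalings and filters, a replicate block, and omission of each library. Where that leaves 1 library in a group, its spread is taken from the other genotype. The fit was tested on simulated counts, which varied less between libraries than the deposited counts do. Floors (3 counts, 0.0477 to 0.0719 CPM) cover counting error only. The members and gene lists were chosen with earlier results of these data known. The naming rule covered all 40 members, and of the other lists Ccnd1, Ccnd2, Cdkn1a, Cdkn1b, Cdkn1c, Cdkn2a, E2f1, Foxm1, Trp53 and genes with an unadjusted p under 0.05. Nearly all chromosome 11 genes were not analysed here. Scripts used Python 3.11.15, pandas 2.3.3 and numpy 2.4.6.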

Additional observations from a re-analysis of the deposited data

How the results depend on the processing

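With 4 libraries, 0 members were called under every scaling, filter and tool tried, and 4 genes were called over all with DESeq2. Leaving out 1 library gave 0 to 5724 genes called over all, 0 to 6 replication members and 0 to 9 mitotic members; the high ends came without KO replicate 1, and every other omission gave 0 members. The median log2 fold change of the replication members, -0.20, was -0.32 with upper quartile scaling, -0.33 with total count scaling and -0.36 with limma voom, and -0.39 to -0.07 with a library left out. That of the mitotic members, -0.54, was -1.48 with limma voom, 0.19 at a mean of at least 5 CPM, where only 5 members remained, and -3.31 to -0.08 with a library left out. The median over all genes tested, -0.14, was -0.23 with upper quartile scaling, -0.24 with total count scaling and -0.22 with limma voom. It was -0.01 at a mean of at least 5 CPM, -0.71 without KO replicate 1 and -0.04 without KO replicate 2. The log2 ratio of the replication sums ran from 0.07, without KO replicate 2, to 0.56. With the replicate block, the medians were -0.35 and -1.62 and 0 genes were called. No label says that same-numbered libraries form pairs. Deviations of same-numbered libraries from their group means correlated at 0.0231. The KO deviations are set by the contrast with KO replicate 2, so this value cannot decide pairing. The log2 fold change turned sign in 17 members when a library was left out, in 8 of them without KO replicate 2. The ranges were -0.32 to 0.48 for Mcm3, -0.59 to 0.44 for Mcm6, -0.37 to 0.06 for Mcm7, -0.03 to 2.49 for Ccne1, -10.41 to 1.56 for Gins2, -1.05 to 0.29 for Cdt1 and -1.14 to 0.25 for Rrm1. Among mitotic genes they were -8.52 to 0.15 for Cdk1, -0.87 to 0.90 for Cenpf, -10.55 to 0.45 for Ccna2, -5.71 to 0.58 for Aurka, -8.74 to 0.01 for Plk1, -0.36 to 0.31 for Racgap1, -9.64 to 0.64 for Ccnb1, -0.23 to 1.10 for Bub1b, -0.44 to 2.02 for Kif11 and -5.40 to 0.68 for Prc1. Other settings turned 4 members: Mcm3 was -0.07 and Racgap1 -0.07 with upper quartile scaling, -0.08 and -0.09 with total count scaling, Racgap1 was -0.02 and Gins2 -2.82 with the replicate block, and Gins2 was -2.78 and Cenpf -0.04 with limma voom. The cause was not tested, and fitted values of genes near 0 counts depend on the prior count and are no bound. The other 23 members, Mki67, Pcna, Ccne2, Mcm4, Mcm5, Dut, Uhrf1, Anln, Ect2 and Tpx2 among them, kept their sign under every setting in which they were tested. Each gene named here lay on the same side of WT in both KO libraries, so leaving out a library could hardly turn its sign. The kept sign restates those sides and is no further support. Depth limits the low genes, where a count of 0 allows up to 0.0719 CPM in KO replicate 2.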

Other observations

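KO replicate 2 also held isolated high values among other genes of DNA replication and mitosis, chosen here after their values were seen. Lig1, the ligase that joins Okazaki fragments, stood at 7.29 and 6.37 CPM in the WT libraries, 6.12 CPM in KO replicate 1 and, in KO replicate 2, 100 CPM. Dbf4, the activating subunit of the CDC7 kinase that fires origins, stood at 7.34 and 8.38 CPM in the WT libraries, 7.32 CPM in KO replicate 1 and, in KO replicate 2, 55.9 CPM, while Cdc7 itself had 0 counts in that library. Kif15, a spindle motor, stood at 1.1 and 5.81 CPM in the WT libraries, 2.97 CPM in KO replicate 1 and, in KO replicate 2, 25.3 CPM. Genes at moderate WT level were in turn at 0 counts there, among them Tacc3, a spindle protein (8.14 and 5.56 CPM in WT), and Orc1, an origin-binding subunit (6.23 and 6.75 CPM in WT). In KO replicate 1, Tacc3 stood at 6.14 CPM and Orc1 at 3.31 CPM.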
